A study of Mus musculus with 60 samples.

Results

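The SA comparison in ribosome pulldown sets the 12 IP libraries of the SA and SA:ANH subtypes against the 12 IP libraries of the ANH and RES subtypes. It uses 24 of the 60 libraries of the series, 6 for each of 4 subtypes, chosen by their labels alone. The mean of SA and SA:ANH was set against the mean of ANH and RES, and the 6 NS libraries were left out of the fit. The labels do not spell out SA, ANH, RES or NS, so the subtypes are read here only as a layout in which SA and SA:ANH carry the name SA and ANH and RES do not.

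All mice were of the inbred strain DBA2/J and carried GFP-L10a, in which a fluorescent tag is joined to ribosomal protein L10a, and all tissue was medial prefrontal cortex (mPFC). IP libraries hold RNA pulled down with an antibody against GFP and are labelled as projectors to the aPVT, while Input libraries are labelled as bulk tissue. The series names 5 days of social defeat, and the labels do not say which subtypes went through it or which cells were made to carry the tag. The 24 totals lay between 19078928 and 26084170 counts. No label ties the 6 libraries of a subtype to separate animals. The p-values therefore reflect how far these libraries scatter, and that scatter may be technical.

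A pulldown of tagged ribosomes enriches messages under translation in the cells that carry the tag, over a background of RNA from all other cells of the tissue. Myelin messages belong to oligodendrocytes, Gfap to astrocytes and Sst to a class of inhibitory interneuron, whereas neurons that project out of the prefrontal cortex are mostly excitatory. Messages for ribosomal proteins often begin with a run of pyrimidines, through which their translation is controlled as a group.

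In SA and SA:ANH pulldowns, genes for ribosomal proteins, respiratory chain subunits and several long noncoding RNAs rose, relative to ANH and RES pulldowns. Genes of oligodendrocytes, astrocytes and some interneurons fell. Excitatory neuron markers were also lower in 9 of 20 and higher in 3. Of these markers 8 were lower and 1 higher in SA against RES, and 4 lower and 3 higher in SA:ANH against ANH. Markers of thalamus, striatum and claustrum were lower in 6 of 15 and higher in 0. Of 16320 genes tested, 1914 were higher (11.7%) and 1578 were lower (9.67%) at an adjusted p under 0.05 by edgeR's quasi-likelihood test. At a mean of at least 5 CPM the balance turned, with 1603 higher and 1843 lower. At least 2-fold differences were fewer, with 77 genes higher and 204 lower. In 211 genes (1.29%) all 12 SA and SA:ANH libraries lay above all 12 ANH and RES libraries, and in 40 genes (0.245%) all 12 lay below. Levels are given below in CPM, counts scaled by library size and TMM factor, as the lowest, median and highest of 6 libraries, and fold changes are log2 values ± SE with edgeR's adjusted p. Because each library pools RNA from many cells, differences in cell number, in RNA per cell and in background from untagged cells cannot be told apart.

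**Figure D1:**
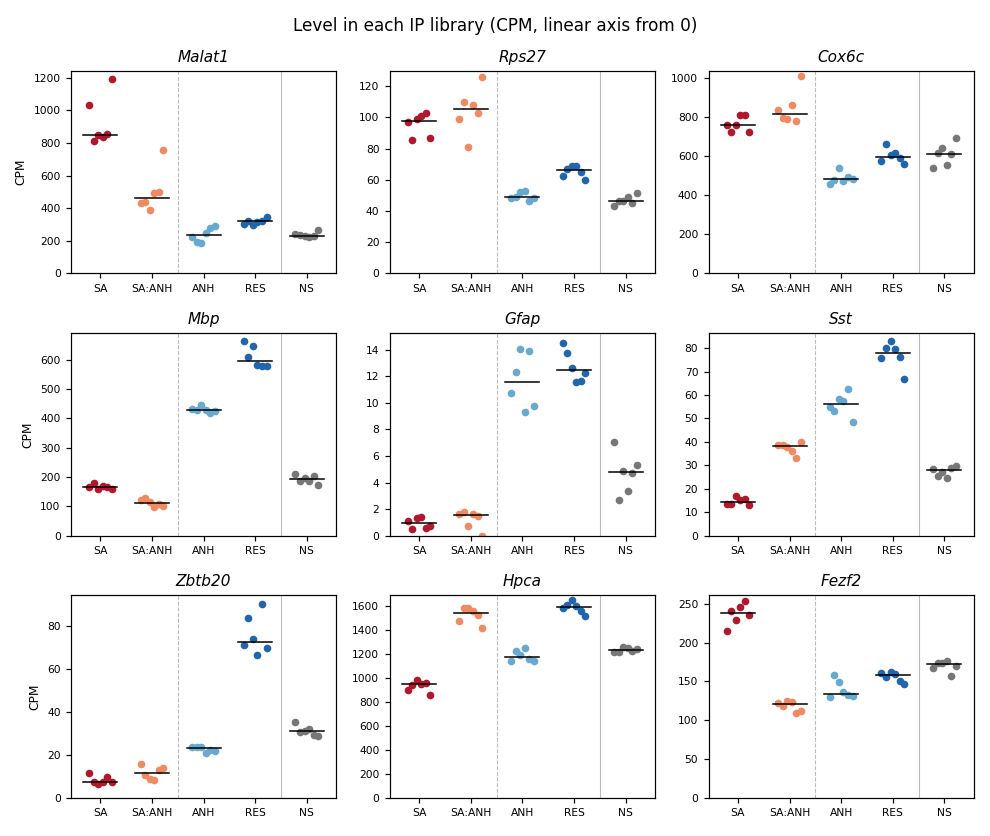
Level of 9 genes in every IP library, in CPM on linear axes from 0. Each point is 1 library, black lines are medians of 6, SA and SA:ANH stand left of the dashed line, ANH and RES right of it, and NS (not in the fit) at the far right. Mbp had medians of 165 and 112 CPM in SA and SA:ANH, against 430 and 596 CPM in ANH and RES.

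Ribosomal protein genes gave the most uniform rise. Of 82 tested, 79 were higher and 0 lower, with a median log2 fold change of 0.51, beside -0.01 over all genes tested. In 43 of the 82 the 12 SA and SA:ANH libraries lay above the 12 ANH and RES libraries. The 3 that did not pass, named after their values were seen, were Rpl22 at 0.17, Rpl29 at 0.37 and Rpl10a at -0.08. The stretches around the RefSeq transcript start of 4 members are shown because they carry, or lack, the pyrimidine run for which this family is known. Each holds 40 bases before and 20 bases after a listed start in GRCm38.p6, and capitals mark the longest run of C or T from 10 bases before to 20 bases after it. Where RefSeq lists several starts, as the 3 of Rps19, the start with the longest run is shown.
Rps27 (chr3:90213629-90213688, minus strand): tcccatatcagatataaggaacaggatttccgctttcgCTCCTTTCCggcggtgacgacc
Rpl31 (chr1:39367811-39367870, plus strand): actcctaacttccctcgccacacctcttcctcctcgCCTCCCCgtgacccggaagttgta
Rps23 (chr13:90923082-90923141, plus strand): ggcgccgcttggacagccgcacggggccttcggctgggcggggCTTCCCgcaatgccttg
Rps19 (chr7:24884873-24884932, plus strand): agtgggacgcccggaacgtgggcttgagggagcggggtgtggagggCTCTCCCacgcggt
The runs were 9, 7, 6 and 7 bases long in Rps27, Rpl31, Rps23 and Rps19. Rpl31 also holds a longer run of 13 bases that ends 6 bases before the start, of which 5 bases lie within the stretch searched. Runs were read on the strand that matches the transcript. A run of at least 8 bases was found at any listed start in 25 of the 61 tested ribosomal protein genes with a RefSeq promoter (41%). Over all tested genes with a promoter it was found in 1608 of 11472 (14%). At the first listed start alone the shares were 36.1% and 11.3%. With runs that cross the edge of that stretch counted whole, a count added after seeing the data, the numbers at any listed start were 32 of 61 (52.5%) and 2301 of 11472 (20.1%). The minimum of 8 was chosen after minimums of 7, 9 and 10 had also been looked at, and a match describes the letters only.

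Rps27, a protein of the small subunit, had 85.2, 98 and 102 CPM in SA and 81.2, 105 and 126 CPM in SA:ANH, against 46.4, 48.9 and 52.8 CPM in ANH and 59.7, 66 and 69.1 CPM in RES. No library of SA or SA:ANH reached down to those of ANH or RES, and the log2 fold change was 0.80 ± 0.05 (adjusted p = 9.97e-13). NS libraries had a median of 46.4 CPM. Rpl31, of the large subunit, rose by 0.76 ± 0.05 (adjusted p = 2.24e-12), and Rps23 and Rps19, of the small subunit, rose by 0.68 ± 0.04 and 0.53 ± 0.04. Summed over the list, medians were 13200 CPM in SA and 14090 CPM in SA:ANH, against 9022 CPM in ANH, 11020 CPM in RES and 9445 CPM in NS. The rise was larger between SA:ANH and ANH, with a list median of 0.70, than between SA and RES, with 0.32. In 61 of the 82 genes this difference between the pairs of subtypes passed as an interaction (background share 4.53% higher), all in that direction. Rpl10a, the gene of the tagged protein, whose count may include the tagged transcript, went against its family in 1 pair: it fell by 0.37 ± 0.05 in SA against RES (adjusted p = 1.56e-05) and rose by 0.22 ± 0.05 in SA:ANH against ANH (adjusted p = 0.00442). Pseudogenes that copy ribosomal protein genes had 13 higher and 2 lower of 92, beside 11.7% and 9.67% of all genes tested. Their median was -0.04, and reads may be split between them and their parents.

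Translation factors rose by less. Of 41 tested, 20 were higher and 0 lower, with a median of 0.08. Eef1g, a subunit of the elongation factor that reloads its partner, rose by 0.35 ± 0.03 (adjusted p = 3.13e-09). Eef1a1, which brings aminoacyl-tRNA to the ribosome, rose by 0.22 ± 0.02 (adjusted p = 1.58e-08).

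Genes for energy metabolism rose alongside. Of 75 nuclear genes for the respiratory chain and ATP synthase, 70 were higher, 1 was lower and 4 did not pass, with a median of 0.38, and 34 had no overlap between the sides. Cox6c, a subunit of cytochrome oxidase, had 720, 758 and 807 CPM in SA and 777, 814 and 1010 CPM in SA:ANH, against 458, 481 and 538 CPM in ANH and 558, 597 and 660 CPM in RES. Its rise was 0.56 ± 0.04 (adjusted p = 1.24e-12), and its NS median of 613 CPM lay nearer to RES than to SA. Uqcrq, a subunit of complex III, rose by 0.45 ± 0.03 (adjusted p = 1.08e-12). The member that fell, named after its value was seen, was Sdha, the flavoprotein of complex II, at -0.10. Of 15 mitochondrially encoded genes 9 were higher and 0 lower. mt-Co1, a core subunit of cytochrome oxidase, rose by 0.65 ± 0.07 (adjusted p = 5.09e-08), and mt-Rnr2, a ribosomal RNA of the organelle, by 0.78 ± 0.10 (adjusted p = 4.5e-07). These transcripts are made and translated inside mitochondria, and their share of counts averaged 0.0432% ± 0.00554 in SA and 0.0302% ± 0.00862 in SA:ANH, against 0.024% ± 0.00385 in ANH and 0.0268% ± 0.00216 in RES (SD, n = 6 each). SA:ANH replicate 6 stood alone at 0.0468%, and the other 5 SA:ANH libraries averaged 0.0269% ± 0.00317, close to RES. Without it 8 of the 15 genes were higher.

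Proteasome genes rose in 21 of 31 tested, with 0 lower and a median of 0.14. Psmb1 and Psma7, subunits of the core particle, rose by 0.29 ± 0.03 (adjusted p = 5.28e-09) and 0.28 ± 0.03 (adjusted p = 3.82e-09). Heat shock genes and chaperones went both ways, with 8 higher and 6 lower of 34. Hsp90aa1, an inducible chaperone, rose by 0.25 ± 0.03 (adjusted p = 8.92e-08), whereas Cryab, a small heat shock protein that oligodendrocytes also make, fell by 0.84 ± 0.08 (adjusted p = 4.21e-09).

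Many of the genes that rose are short, and gene length moved with the result. With the genes tested split by length into 5 equal bins, in the shortest bin 26.5% were higher and 5.97% lower, and 24% and 6.18% without the ribosomal protein and respiratory chain lists. In the longest bin 5.3% were higher and 10.3% lower. The part of gene length in these rises was not tested. Processed pseudogenes had 27 higher and 139 lower of 811.

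**Figure D2:**
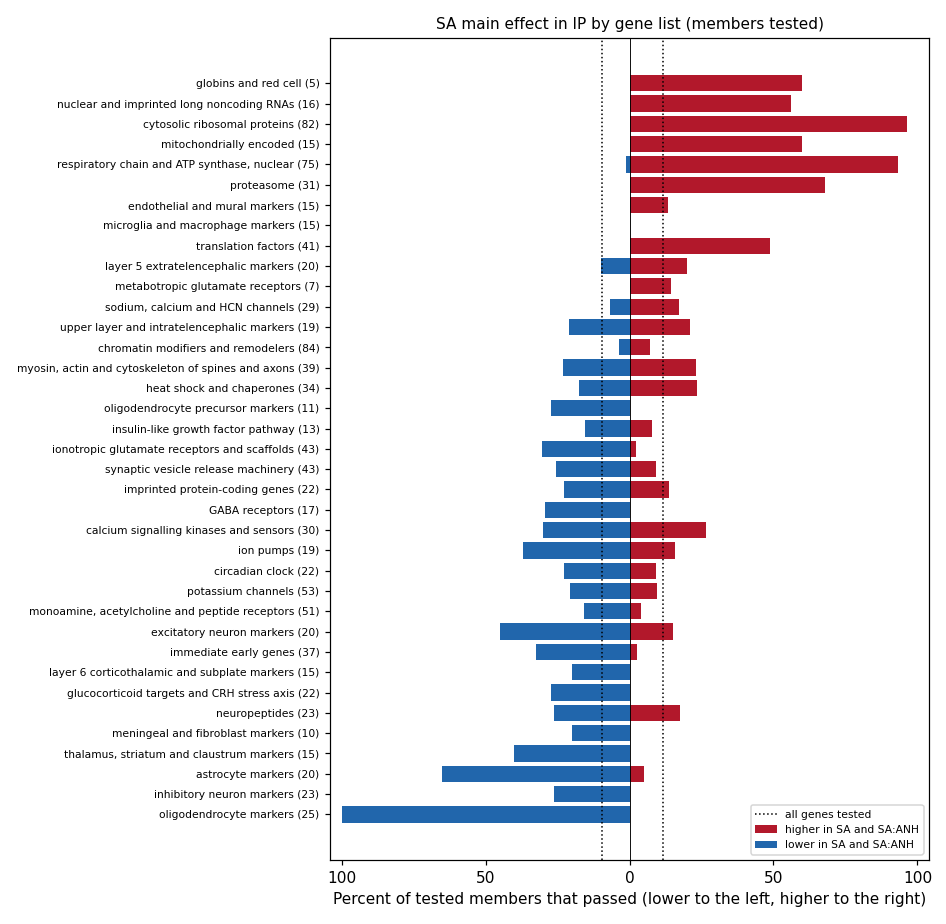
Share of the tested members of each gene list that passed in the SA comparison in IP, in percent, higher to the right in red and lower to the left in blue. Dotted lines mark the shares over all genes tested, 11.7% higher and 9.67% lower, and rows are sorted by the list's median log2 fold change. Ribosomal protein genes reach furthest right with 79 of 82, and oligodendrocyte markers furthest left with 25 of 25.

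In a hand-picked list of nuclear and imprinted long noncoding RNAs 9 of 16 were higher and 0 lower, with a median of 0.61. The list does not stand for its class, since of all 1345 long noncoding RNAs tested 111 were higher (8.25%) and 24 lower (1.78%), with a median of 0.12. Malat1 (chromosome 19, 5845718 to 5852700 in the deposited table, for which no annotation build is stated), a nuclear speckle RNA, had 810, 850 and 1190 CPM in SA and 390, 464 and 759 CPM in SA:ANH, against 184, 238 and 294 CPM in ANH and 294, 319 and 344 CPM in RES. SA stood well above SA:ANH, which in turn lay above ANH and RES in every library, and the rise was 1.30 ± 0.09 (adjusted p = 2.88e-12). Snhg11, a host gene of small nucleolar RNAs, had 227, 230 and 239 CPM in SA and 112, 121 and 130 CPM in SA:ANH, against 58.5, 67.9 and 79.9 CPM in ANH and 94.5, 99.6 and 110 CPM in RES. It rose by 0.996 ± 0.04 (adjusted p = 8.82e-17), again with no overlap between the sides.

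Meg3, an imprinted RNA, rose by 0.90 ± 0.04 (adjusted p = 1.38e-17), and its SA:ANH and RES libraries overlapped, with medians of 148 and 140 CPM. Miat rose by 0.84 ± 0.11 (adjusted p = 5.07e-07). Gas5, whose introns encode small nucleolar RNAs and whose transcript starts like a ribosomal protein message, rose by 0.64 ± 0.06 (adjusted p = 4.01e-10). Kcnq1ot1 rose by 1.31 ± 0.12 (adjusted p = 7.93e-10), but it is antisense to its host gene, and without a stated strand setting reads of the pair cannot be told apart. Meg3, Snhg11, Kcnq1ot1 and Rian, the last named after its value was seen, rose more between SA and RES than between SA:ANH and ANH, with negative interactions of -0.31, -0.40, -0.78 and -0.75. In Input, Meg3, Snhg11 and Miat were also higher, by 0.27 ± 0.03, 0.25 ± 0.02 and 0.42 ± 0.05, while Malat1 did not pass there (0.00 ± 0.06, adjusted p = 0.987).

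The rule for naming genes also brought in rises outside these lists. Ltbp1, which holds TGF-beta in the extracellular matrix, rose by 1.10 ± 0.19 (adjusted p = 6.13e-05) with libraries that overlapped in both pairs. Tnnc1, a calcium-binding troponin, had medians of 18.6 CPM in SA and 28 CPM in SA:ANH, against 15.5 CPM in ANH and 11.7 CPM in RES, and rose by 0.80 ± 0.08 (adjusted p = 4.75e-09). Globin genes were higher in 3 of 5. Hba-a1 rose by 0.79 ± 0.08 (adjusted p = 2.35e-09) and Hbb-bs by 0.73 ± 0.11 (adjusted p = 8.6e-06), and both were also higher in Input, by 0.15 ± 0.02 and 0.14 ± 0.02. Their list summed in IP to medians of 44.1 CPM in SA and 47.1 CPM in SA:ANH, against 25.6 CPM in ANH and 29.6 CPM in RES. In Input it summed to 1560 CPM in SA and 1536 CPM in SA:ANH, against 1539 CPM in ANH and 1279 CPM in RES. The Input sums thus set RES apart, and ANH lay with SA and SA:ANH.

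Oligodendrocyte markers showed the largest median fall of the lists. All 25 tested members were lower, with a median of -2.28, and in 13 the 12 SA and SA:ANH libraries lay below the 12 ANH and RES libraries. Trf, which encodes transferrin, an iron carrier made by oligodendrocytes in brain (chromosome 9, 103081200 to 103107643 in the deposited table), had 0.914, 2.35 and 4.85 CPM in SA and 1.86, 3.48 and 7.76 CPM in SA:ANH, against 40.2, 45.1 and 49.6 CPM in ANH and 67.7, 78.5 and 92.3 CPM in RES. The fall was 4.29 ± 0.18 on the log2 scale (a log2 fold change of -4.29, adjusted p = 2.16e-17), and NS had a median of 11.3 CPM, between the sides.

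Mbp, a structural protein of compact myelin, had medians of 165 CPM in SA and 112 CPM in SA:ANH, against 430 CPM in ANH and 596 CPM in RES, a log2 fold change of -1.92 ± 0.04 (adjusted p = 2.69e-26). Mag, an adhesion molecule of the inner myelin wrap, was at -3.03 ± 0.15 (adjusted p = 1.51e-15), and Mobp, another myelin protein, at -2.40 ± 0.09 (adjusted p = 2.44e-18). Log2 fold changes were -2.32 ± 0.10 for Car2, a carbonic anhydrase (adjusted p = 8.82e-17), -2.14 ± 0.09 for Plekhb1 (adjusted p = 7.21e-17) and -2.80 ± 0.14 for Bcas1, a marker of newly myelinating cells (adjusted p = 1.89e-15). Summed over the 25 markers, medians were 425.7 CPM in SA and 368.6 CPM in SA:ANH, against 1000 CPM in ANH, 1432 CPM in RES and 475.5 CPM in NS. NS, which was not in the fit, lay nearer to SA and SA:ANH than to ANH and RES. The same markers summed in Input to medians of 4746 CPM in SA and 4366 CPM in SA:ANH, against 6349 CPM in ANH, 5544 CPM in RES and 4058 CPM in NS, and 21 of 25 were lower there. The precursor list had 3 of 11 lower, which were Bcas1, Sox6 and Enpp6, the last 2 named after their values were seen.

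**Figure D3:**
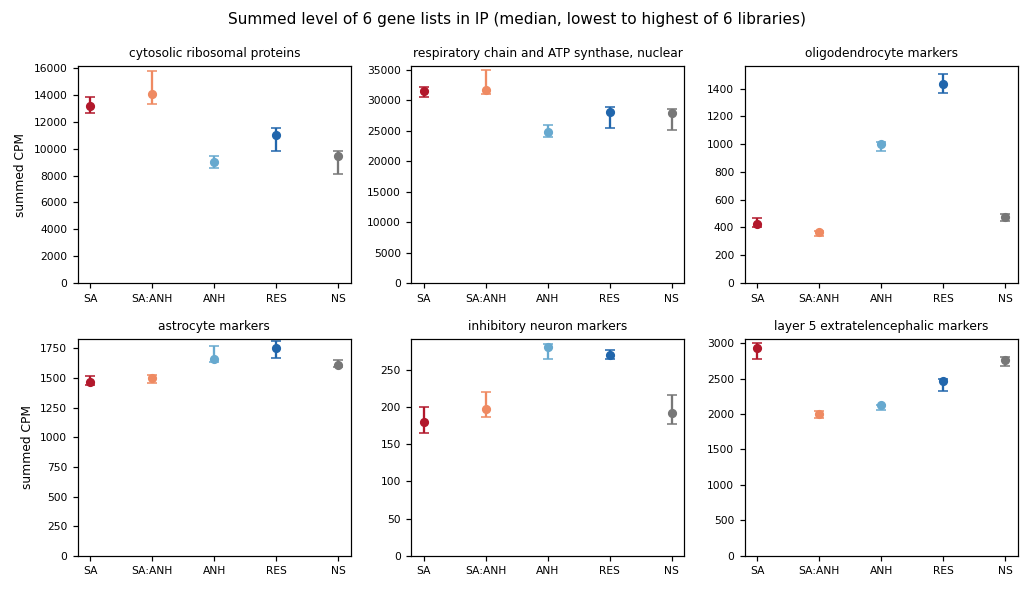
Summed CPM of 6 gene lists in IP, as the median with the lowest and highest of 6 libraries, on linear axes from 0, with NS at the far right. Oligodendrocyte markers had medians of 425.7 and 368.6 CPM in SA and SA:ANH, against 1000 and 1432 CPM in ANH and RES.

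Astrocyte markers fell in 13 of 20 and were higher in 1, with a median of -0.44. Gfap, the filament protein of reactive astrocytes, had 0.522, 0.924 and 1.44 CPM in SA and 0, 1.55 and 1.8 CPM in SA:ANH, against 9.33, 11.6 and 14.1 CPM in ANH and 11.6, 12.4 and 14.5 CPM in RES. It fell by 3.51 ± 0.25 (adjusted p = 6.09e-12) with no overlap, and NS libraries had a median of 4.81 CPM. Apoe, a lipid carrier, fell by 0.74 ± 0.04 (adjusted p = 5.13e-14), and Slc1a3, a glutamate transporter, by 0.74 ± 0.09 (adjusted p = 1.66e-07). The member that rose, named after its value was seen, was S100b, a calcium-binding protein, at 0.32. Summed over the list, medians were 1462 CPM in SA and 1496 CPM in SA:ANH, against 1660 CPM in ANH and 1755 CPM in RES. In Input 1 astrocyte marker was higher and 1 lower of 20.

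Other cell types outside the neurons showed few calls. Of 15 microglia markers tested 0 passed by edgeR in either direction, 3 had an unadjusted p under 0.05, 1 passed by DESeq2 and 1 by limma voom. Their list summed to medians of 43.3 CPM in SA and 36.9 CPM in SA:ANH, against 40.5 CPM in ANH and 40.3 CPM in RES. Of 15 endothelial and mural markers 2 were higher, Bsg and Acta2, beside 11.7% of all genes tested. Of 10 meningeal markers 2 were lower, Ptgds and Igf2, beside 9.67%. All 4 were named after their values were seen. Acta2 lay near 0, with a median of 0.409 CPM over the 12 SA and SA:ANH libraries and 0 CPM over the 12 others. It was at 7.14 ± 1.46 in SA against RES and at -0.61 ± 1.04 in SA:ANH against ANH (adjusted p = 0.754).

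Inhibitory neuron markers fell in 6 of 23 and were higher in 0, with a median of -0.51. Sst, which encodes somatostatin, had 13, 14.4 and 16.8 CPM in SA and 33.3, 38.1 and 39.9 CPM in SA:ANH, against 48.7, 56.1 and 62.5 CPM in ANH and 67, 77.9 and 83 CPM in RES. The 4 subtypes did not overlap with one another, and the log2 fold change was -1.50 ± 0.05 (adjusted p = 4.57e-19). NS libraries, with 24.5, 27.8 and 29.6 CPM, lay between SA and SA:ANH. Its promoter is shown because it holds the cyclic AMP response element through which this gene is known to be induced. The stretch below is from GRCm38.p6, minus strand, and capitals mark TGACGTCA, whose first base lies 48 bases before the RefSeq start.
Sst (chr16:23890855-23890922, minus strand): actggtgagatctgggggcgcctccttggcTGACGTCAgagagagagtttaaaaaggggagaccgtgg
TGACGTCA reads the same on both strands. It was present at any listed start, from 250 bases before to 50 after, in 402 of 11472 tested genes (3.5%) and in 1 of 19 inhibitory neuron markers with a promoter.

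Gad1, an enzyme that makes GABA, had medians of 6.57 CPM in SA and 11 CPM in SA:ANH, against 18.5 CPM in ANH and 15.4 CPM in RES, and fell by 1.04 ± 0.15 (adjusted p = 3.69e-06). Npy, a peptide of interneurons, fell by 0.55 ± 0.06 (adjusted p = 5.76e-08). Gad2 and Slc32a1, which make and load GABA and were named after their values were seen, also fell, with log2 fold changes of -0.59 and -1.47. The list summed to medians of 180.1 CPM in SA and 197.3 CPM in SA:ANH, against 280.3 CPM in ANH and 270.1 CPM in RES, with 191.4 CPM in NS. In Input 0 of 24 inhibitory neuron markers passed by edgeR, 3 had an unadjusted p under 0.05, 0 passed by DESeq2 and 0 by limma voom.

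Immediate early genes, which neurons switch on within minutes of activity, were lower in 12 of 37 and higher in 1, with a median of -0.14. Egr1, a transcription factor, had 143, 172 and 176 CPM in SA and 171, 175 and 196 CPM in SA:ANH, against 255, 258 and 279 CPM in ANH and 176, 189 and 203 CPM in RES. ANH stood above the other subtypes, SA and RES overlapped, and the fall was 0.36 ± 0.04 (adjusted p = 3.46e-09). Fos, a transcription factor, had medians of 23.5 CPM in SA and 16.2 CPM in SA:ANH, against 26.2 CPM in ANH and 20.4 CPM in RES. Its fall of 0.27 ± 0.09 (adjusted p = 0.0205) came from 1 pair, since it fell by 0.76 ± 0.12 in SA:ANH against ANH and was 0.21 ± 0.12 in SA against RES (adjusted p = 0.316). In a fit without the interaction its adjusted p was 0.129.

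Nptx1, a secreted organiser of AMPA receptors, fell by 0.40 ± 0.04 (adjusted p = 4.59e-10), and Rasd1, a small GTPase also induced by glucocorticoids, fell by 1.37 ± 0.15 (adjusted p = 1.49e-08). The member that rose was Rheb, an activator of mTORC1, at 0.15, named after its value was seen. Bdnf, a neurotrophin, was at 0.04 ± 0.04 (adjusted p = 0.576). In Input the direction was mostly the other, with 11 members higher and 1 lower of 39, and Fos was higher there by 0.46 ± 0.07 (adjusted p = 0.000139).

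Glucocorticoid targets and stress axis genes were lower in 6 of 22 and higher in 0, with a median of -0.16. In SA against RES 7 were lower and 1 higher, beside 4.88% and 6.24% of all genes tested. In SA:ANH against ANH 2 were lower and 2 higher, beside 7.35% and 10.3% of all genes. The interaction passed in 6, with 5 positive and 1 negative, beside 7.46% of all genes. The list summed to medians of 685.8 CPM in SA, against 794.4 CPM in RES, and 766.4 CPM in SA:ANH, against 760 CPM in ANH. Nr3c2, the mineralocorticoid receptor, had 11.7, 12.5 and 14.2 CPM in SA and 11.9, 12.5 and 14.1 CPM in SA:ANH, against 14.6, 17.1 and 21.3 CPM in ANH and 24.3, 28.6 and 33.7 CPM in RES. All 12 SA and SA:ANH libraries lay below the others, with a log2 fold change of -0.80 ± 0.07 (adjusted p = 9.28e-10). Fkbp5, a chaperone that dampens the glucocorticoid receptor, fell by 0.38 ± 0.10 (adjusted p = 0.0081) with overlapping libraries. Mt2, a metallothionein, fell by 0.78 ± 0.12 (adjusted p = 7.23e-06). Zbtb20 and Igfbp4, given next, are outside this list. Zbtb20, a transcriptional repressor, had 6.42, 7.37 and 11.5 CPM in SA and 8.27, 11.6 and 15.7 CPM in SA:ANH, against 21, 23 and 23.8 CPM in ANH and 66.4, 72.4 and 90.1 CPM in RES, and fell by 2.09 ± 0.10 (adjusted p = 5.29e-16). Igfbp4, which binds insulin-like growth factors, fell by 0.50 ± 0.03 (adjusted p = 6.56e-15), with medians of 451 CPM in SA and 327 CPM in SA:ANH, against 409 CPM in ANH and 686 CPM in RES.

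The next 4 lists, of receptors and channels, had medians of -0.03, -0.05, -0.08 and -0.12 in the order given. These were smaller than the -0.16 of the glucocorticoid and stress axis list, though single genes fell further. Ionotropic glutamate receptors and their scaffolds were lower in 13 of 43 and higher in 1, which was Cnih3, named after its value was seen. Cnih2, an auxiliary protein of AMPA receptors, fell by 0.26 ± 0.03 (adjusted p = 9.77e-09) with no overlap, and Gria1, an AMPA receptor subunit, by 0.24 ± 0.03 (adjusted p = 3.67e-07). GABA receptor genes were lower in 5 of 17 and higher in 0, among them Gabra2, a subunit, at -0.22 ± 0.04 (adjusted p = 0.000114). Potassium channels were lower in 11 of 53 and higher in 5, and Kcnk2, a leak channel, fell by 1.10 ± 0.19 (adjusted p = 6.89e-05). Monoamine, acetylcholine and peptide receptors were lower in 8 of 51 and higher in 2, and Htr7, a serotonin receptor, fell by 1.05 ± 0.19 (adjusted p = 8.4e-05) at medians of 3 CPM in SA and 6.44 CPM in SA:ANH, against 7.79 CPM in ANH and 11.8 CPM in RES.

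Vesicle release genes were lower in 11 of 43 and higher in 4, and the pairs differed. In SA:ANH against ANH 13 were lower and 2 higher, in SA against RES 3 were lower and 4 higher, and 13 passed the interaction with a negative sign and 3 with a positive one. Vamp2, a vesicle SNARE, was at -0.22 ± 0.03 in SA:ANH against ANH (adjusted p = 4.03e-07) and at -0.01 ± 0.03 in SA against RES (adjusted p = 0.895). Calcium signalling genes went both ways, with 8 higher and 9 lower of 30, and Camk2a, a synaptic kinase, fell by 0.25 ± 0.03 (adjusted p = 1.69e-06). Stmn2, a regulator of axonal microtubules, rose by 0.24 ± 0.02 (adjusted p = 5.55e-10) with no overlap, in a cytoskeleton list with 9 higher and 9 lower of 39. Excitatory neuron markers were lower in 9 of 20 and higher in 3. In SA against RES 8 were lower and 1 higher, and in SA:ANH against ANH 4 were lower and 3 higher. Layer 6 markers were lower in 3 of 15 and higher in 0. They summed to medians of 813.9 CPM in SA, against 723.9 CPM in RES, and 599.7 CPM in SA:ANH, against 659.3 CPM in ANH. Upper layer markers were lower in 4 and higher in 4 of 19. Their sums were 2576 CPM in SA, against 2450 CPM in RES, and 3130 CPM in SA:ANH, against 2591 CPM in ANH. Markers of thalamus, striatum and claustrum were lower in 6 of 15 and higher in 0. Neuropeptide genes were lower in 6 of 23, Sst and Npy among them, and higher in 4, which were Cck, Adcyap1, Grp and Scg5, named after their values were seen. Chromatin modifiers were higher in 6 and lower in 3 of 84, below the shares over all genes tested.

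The layout holds 2 pairs, SA with RES and SA:ANH with ANH, and so also asks whether the SA difference was the same with and without ANH in the subtype's name. SA against RES gave 1815 of 16320 genes (11.1%), with 1019 higher (6.24%) and 796 lower (4.88%). SA:ANH against ANH gave 2877 (17.6%), with 1677 higher (10.3%) and 1200 lower (7.35%). The pairs share no library. In all 777 genes passed in both in the same direction, 42.8% of the calls in SA against RES and 27% of those in SA:ANH against ANH, and 114 passed in opposite directions. Of the 777, 555 were higher (3.4% of genes tested) and 222 lower (1.36%). Across the genes tested, which are not independent replicates, the fold changes of the pairs had a Pearson r of 0.33 and a Spearman rho of 0.28. Over all genes tested, 61.3% had the same sign in both pairs. The test of the difference between the pairs, SA:ANH minus ANH against SA minus RES, passed in 1218 genes (7.46%), with 740 positive (4.53%) and 478 negative (2.93%), and 663 of the genes that passed in the main comparison, 19%, were among them. Genes marked above as named after their values were seen are left out of the next counts. Of the other genes described, 62 passed in the main comparison, and 51 of these passed in both pairs. The 12 largest rises and falls were named only if they passed in both pairs, so this count partly reflects the naming rule. Cryab, Fkbp5, Mt2, Rasd1, Wipf3, Camk2a, Htr7 and Gabra2 passed in SA against RES alone, and Fos, Bcl11b and Vamp2 in SA:ANH against ANH alone. The interaction passed in each of these 11 except Fkbp5 (adjusted p = 0.661). Among the genes left out of these counts, Gad2 passed in both pairs. Bsg, Acta2 and Enpp6 passed in SA against RES alone, Ptgds and Cck in SA:ANH against ANH alone, and Sox6 and Igf2 in neither.

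**Figure D4:**
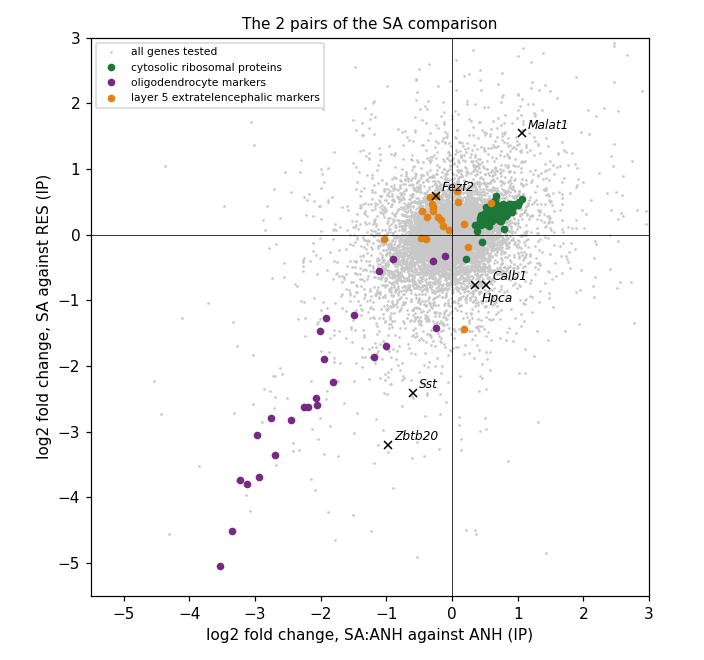
Log2 fold change in IP of SA:ANH against ANH (horizontal) and of SA against RES (vertical) for all genes tested, with 3 gene lists in colour and 6 genes marked, and 36 genes outside the plotted range not shown. Ribosomal protein genes lie to the upper right with list medians of 0.70 and 0.32, and oligodendrocyte markers to the lower left with -2.06 and -2.48.

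Several neuronal genes moved one way in SA against RES and the other way in SA:ANH against ANH. Hpca, a calcium sensor of neurons, had 859, 948 and 980 CPM in SA, against 1510, 1590 and 1650 CPM in RES, and 1410, 1540 and 1580 CPM in SA:ANH, against 1140, 1170 and 1240 CPM in ANH. It fell by 0.77 ± 0.03 in SA against RES and rose by 0.35 ± 0.03 in SA:ANH against ANH, without overlap in either, and the interaction was 1.13 ± 0.05 (adjusted p = 6.82e-17). Calb1, a calcium-binding protein, had medians of 59.8 CPM in SA, against 105 CPM in RES, and 152 CPM in SA:ANH, against 109 CPM in ANH. Its interaction was 1.28 ± 0.10 (adjusted p = 1.77e-10), and its main difference was -0.13 ± 0.05 (adjusted p = 0.0643). Ptn, a secreted growth factor, and Dbp, a clock output factor, followed the same pattern, with interactions of 1.03 ± 0.08 and 0.78 ± 0.06, as did Olfm1, a secreted protein of neurons, at 0.39 ± 0.03.

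Wipf3, an actin regulator, and Sst were at -1.77 ± 0.09 and -2.40 ± 0.08 between SA and RES, and at -0.02 ± 0.09 and -0.59 ± 0.07 between SA:ANH and ANH. Zbtb20 also fell more between SA and RES, at -3.20 ± 0.15 beside -0.97 ± 0.14. Crim1, a membrane protein that marks corticospinal neurons, went the other way, at 0.40 ± 0.07 in SA against RES and -0.76 ± 0.07 in SA:ANH against ANH, with an interaction of -1.15 ± 0.09 (adjusted p = 9.44e-10).

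Layer 5 markers of neurons that project below the cortex split in the same manner. In SA against RES 11 of 20 were higher and 0 lower, in SA:ANH against ANH 1 was higher and 9 were lower, and 13 passed the interaction, all negative. In the main comparison 4 were higher and 2 lower, with a median of 0.03. Fezf2, a transcription factor that specifies these neurons, had 216, 238 and 254 CPM in SA, against 147, 158 and 163 CPM in RES, and 109, 121 and 125 CPM in SA:ANH, against 130, 134 and 158 CPM in ANH. Its interaction was -0.84 ± 0.07 (adjusted p = 2.12e-09). Bcl11b, another such factor, had medians of 159 CPM in SA, against 161 CPM in RES, and 88.5 CPM in SA:ANH, against 119 CPM in ANH. Pcp4, a calmodulin regulator, was an exception that rose in both pairs, by 0.49 ± 0.05 and 0.59 ± 0.05. The list summed to medians of 2925 CPM in SA, against 2467 CPM in RES, and 2007 CPM in SA:ANH, against 2122 CPM in ANH.

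The same contrast in Input, with 24 bulk libraries, gave far fewer calls. Of 17767 genes tested 347 passed (1.95%), with 154 higher (0.867%) and 193 lower (1.09%). Of 82 ribosomal protein genes 0 passed there by edgeR, with 3 at an unadjusted p under 0.05, 0 by DESeq2, 0 by limma voom and a median of 0.03, whereas oligodendrocyte markers fell in Input too. Trf was at -0.46 ± 0.02 and Mbp at -0.42 ± 0.01, each smaller than in IP. The direct test of IP against Input, in a fit of both fractions, passed in 1997 of 18609 genes (10.7%), with 1027 higher (5.52%) and 970 lower (5.21%). It passed in 78 of 82 ribosomal protein genes, all higher, and in 22 of 25 oligodendrocyte markers, all lower. Rps27 differed by 0.75 ± 0.09 between the fractions (adjusted p = 1.8e-08), Mbp by -1.52 ± 0.04 (adjusted p = 4.33e-35), Sst by -1.48 ± 0.05 (adjusted p = 3.65e-28) and Fos by -0.76 ± 0.11 (adjusted p = 1.22e-06).

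**Figure D5:**
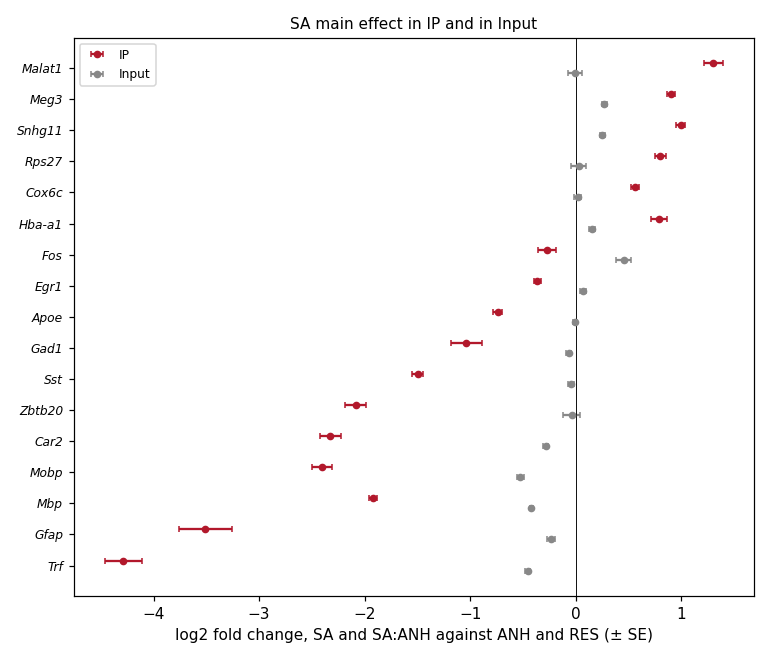
Log2 fold change ± SE of SA and SA:ANH against ANH and RES for 17 genes in IP (red) and in Input (grey). Mbp was at -1.92 in IP and -0.42 in Input, and Fos at -0.27 in IP and 0.46 in Input.

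Some libraries stood apart. ANH replicate 5 and RES replicate 5 were separated from the other 22 on the fourth principal component, which held 4.75% of the variance. Without both, 1747 genes were higher and 1619 lower, a check chosen after seeing the data. SA:ANH replicate 6 was the highest of its group for Malat1, mt-Rnr2, Cox6c and Hsp90aa1.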

How the data were processed

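The authors deposited 1 table of expected counts (estimated, and so not always whole) with 55414 genes in rows and 60 libraries in columns, and 88.4% of its values were whole within 0.000001. Per the labels' protocols, libraries were made with SMART-Seq v4 and TruSeq v2 kits and read as pairs of 100 bases. Tools listed in the submitters' processing notes, without their roles, are TopHat2 2.0.13, Bowtie2 2.2.3 and Trimmomatic 0.32, and the build listed is mm10. How reads were counted, and whether by strand, is not stated there or in the labels. The table's gene lengths are the authors' values in bases. Its positions are not those of mm10: of 38933 genes matched by symbol to GRCm38, 0.755% had the same start. RefSeq promoters were matched by symbol only.

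Counts were rounded and fitted with edgeR 4.0.16 (R 4.3.3), with TMM factors, filterByExpr at a minimum count of 10, 1 coefficient per subtype and Benjamini-Hochberg adjustment at 0.05. CPM use TMM factors over all 30 libraries of a fraction, so that NS is on the same scale, while fold changes come from the fit of 24. The named genes are the 12 largest rises and falls that passed in both pairs (SA against RES, SA:ANH against ANH) at 10 CPM or more, 8 by interaction, 6 by fraction, up to 4 per list, and Rpl10a, Fos, Fkbp5 and Bdnf, from which a subset was described after values were seen. Some genes that met this rule are not reported here. The members and lists were chosen with earlier results of these data known. On simulated data the SA comparison recovered 22%, 66%, 92% and 98% of genes changed by 0.25, 0.5, 1 and 2 on the log2 scale, 50 each among 15927, with 8 false calls. The simulated counts were drawn from the fitted model with all groups otherwise equal, and genes with low mean counts were not changed. These rates describe that setting, which lacks the interactions and outlying libraries of the real data. Alternatives were RLE factors, DESeq2 1.42.0, limma voom (limma 3.58.1), other filters, NS in the fit, an additive fit, a replicate block and leaving out each library. Libraries of a group were compared for repeats, and none agreed within sampling noise.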

Additional observations from a re-analysis of the deposited data

Results flagged for a closer look

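Among 264 groups of 6 libraries checked over 66 genes, 23 had 1 library far from the other 5, where chance flags about 1 in 20. SA:ANH replicate 6 was the high library 6 times. It had 759 CPM of Malat1 (next 499), 52.1 CPM of Gas5 (next 43), 67.3 CPM of mt-Rnr2 (next 43.8), 1010 CPM of Cox6c (next 860), 2130 CPM of Hsp90aa1 (next 1850) and 192 CPM of Calb1 (next 158). Elsewhere in SA:ANH, high values were 176 CPM of Nptx1 and 106 CPM of Bcl11b in replicate 2 and 101 CPM of Crim1 in replicate 1. In SA the high values were 25.1 CPM of Fkbp5 and 6.08 CPM of Htr7, both in replicate 4. Low values in SA were 253 CPM of Eef1g and 62.7 CPM of Bdnf in replicate 1, 143 CPM of Egr1 in replicate 2 and 834 CPM of Camk2a in replicate 6. In ANH the high values were 71.3 CPM of Rps23 (replicate 4), 7.31 CPM of Mt2 and 364 CPM of Cnih2 (replicate 3), 279 CPM of Egr1 (replicate 1) and 37.2 CPM of Fos (replicate 2). Low values in ANH were 21.5 CPM of Gas5 in replicate 4 and 51.8 CPM of Npy in replicate 1. In RES, replicate 1 had 21.4 CPM of Rasd1, above the others.

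The SA difference was unlike in the presence and absence of ANH for 37 of the 66 genes, by the interaction test in edgeR, which passed in 7.46% of all genes tested. The 66 were partly chosen by this test, since 8 were named for their interaction, and of the other 58 it passed in 29. The interaction is the log2 fold change of SA:ANH against ANH minus that of SA against RES. It was positive in the genes that rose more with ANH: 0.52 for Rps27, 0.52 for Rpl31, 0.43 for Rps23, 0.45 for Rps19, 0.23 for Eef1a1, 0.41 for Uqcrq, 0.44 for Cox6c, 0.32 for Psma7 and 0.19 for Psmb1. It was also positive in genes that fell less with ANH: 1.17 for Cryab, 1.52 for Trf, 0.48 for Apoe, 1.81 for Sst, 2.23 for Zbtb20, 0.71 for Nr3c2, 0.78 for Mt2, 0.29 for Igfbp4, 1.82 for Rasd1, 1.75 for Wipf3, 0.34 for Camk2a, 1.65 for Htr7 and 0.28 for Gabra2. Genes with opposite signs in the 2 pairs of subtypes had 1.13 for Hpca, 0.39 for Olfm1, 1.03 for Ptn, 1.28 for Calb1, 0.78 for Dbp and 0.58 for Rpl10a. Negative interactions were -0.31 for Meg3, -0.40 for Snhg11, -0.78 for Kcnq1ot1, -0.38 for Egr1, -0.97 for Fos, -1.15 for Crim1, -0.84 for Fezf2, -0.33 for Bcl11b and -0.21 for Vamp2.

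The SA difference was also unlike in IP and Input in 1 fit of both fractions, a test that passed in 10.7% of all genes. Trf, Mbp, Car2 and Sst were named because they ranked high in this test, so their values describe that choice. IP minus Input was 1.28 for Malat1 and 0.75 for Rps27. It was -3.86 for Trf, -1.52 for Mbp, -2.06 for Car2, -1.48 for Sst and -0.76 for Fos.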

How the results depend on the processing

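Under the alternatives run for the SA comparison, 66 of 74 gene results kept their direction and their side of the threshold, and 0 reversed. Fos, Hpca, Olfm1, Crim1, Dbp and Fezf2 no longer passed in an additive fit, with adjusted p of 0.129, 0.187, 0.304, 0.323, 0.303 and 0.16, and Calb1 and Rpl10a passed under some settings. With RLE factors 1781 genes were higher and 1743 lower, and the median of all genes was -0.02, beside -0.01 with TMM. At a mean of at least 5 CPM 1603 genes were higher and 1843 lower, and in SA:ANH against ANH 1464 were higher and 1577 lower, beside 1677 and 1200; the cause was not tested. In Input, DESeq2 gave 292 higher and 298 lower, and the cause was not tested. Oligodendrocyte markers lower numbered 15 at a mean of at least 5 CPM, where 15 of 25 were tested. Ion pumps lower numbered 4 in the additive fit, beside 7. Imprinted genes lower, 5 in all, numbered 1 with no filter, 3 with NS in the fit, 1 in the additive fit and 1 without ANH IP 5 and RES IP 5, the last chosen after seeing the data. Leaving out each library in turn gave 1610 to 1856 genes higher and 1417 to 1829 lower, clock genes lower 3 to 6, sodium, calcium and HCN channels higher 2 to 6 and imprinted genes lower 2 to 6. Scaling without the moved lists, also added afterwards, gave 1917 higher and 1569 lower.

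With the replicate number as a block 1926 genes were higher and 1596 lower, and of 113 results 112 kept their call and 1, Calb1, newly passed (adjusted p = 0.0068). Deviations of same-numbered libraries of different subtypes had r between -0.0526 and 0.0376, beside -0.0485 to 0.0728 for different numbers. Of 24 libraries, 8 correlated best with their own number, where 36 of the pairs compared shared a number and 180 did not. ANH replicate 5 and RES replicate 5, which stood apart on the fourth principal component, share a number. The labels do not say whether equal numbers mark libraries handled together, and these values do not settle it. Counts of reads without molecular identifiers limit the precision of genes at a few CPM, such as Trf and Gfap in SA and SA:ANH.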
